A study of Rattus norvegicus with 12 samples.

Results

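Ethanol acts on a small set of potassium channels that set the firing of neurons, and the transcripts of 10 of their subunit genes were followed in the central amygdala of rats exposed to ethanol vapor. The rule that chose them, from 37209 genes listed, names subunits of channel families and uses no measured value. They were the BK channel pore gene *Kcnma1* and its β subunit genes *Kcnmb2* and *Kcnmb4*, the GIRK channel genes *Kcnj3* (GIRK1), *Kcnj6* (GIRK2), *Kcnj9* (GIRK3) and *Kcnj5* (GIRK4), and the SK channel genes *Kcnn1* (SK1), *Kcnn2* (SK2) and *Kcnn3* (SK3). All 10 were among the 20944 genes with enough reads to be tested. They were chosen with earlier results of these data known and are not all genes of these families. Others, such as *Kcnmb3*, are given with the partner genes.

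BK channels open on depolarization together with a rise in intracellular calcium, and they repolarize the action potential and limit transmitter release. Ethanol can open them by acting on the pore subunit itself, and β subunits set how strongly the channel responds. GIRK channels are inward rectifiers opened by the βγ subunits of inhibitory G proteins, through which opioid, GABA-B, dopamine, somatostatin and adenosine receptors hyperpolarize neurons, and ethanol opens them by binding to a pocket in the cytoplasmic domain. SK channels are opened by calcium bound to calmodulin, produce the afterhyperpolarization that follows a burst of spikes, and are known to lose function in several brain regions after long ethanol exposure.

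RNA was sequenced from 12 adult male wild type Sprague Dawley rats aged 14 to 16 weeks, 6 in each group, with 1 library from each animal. Rats of the CIE group (chronic intermittent ethanol, rats 1 to 6) breathed ethanol vapor in daily cycles over several weeks and were sampled at the close of the last exposure, while still intoxicated, so that the comparison holds the effects of long exposure and of the ethanol present at sampling together. Rats of the Control group (rats 7 to 12) were kept in air. All rats were housed in groups, and the labels do not give the cage of each rat. The tests treat the rats as independent, and any effect of cage was not tested. Each sample was a punch through the central amygdala of 1 hemisphere and held every cell type of the tissue, so that fewer cells of a type and less RNA per cell cannot be told apart, and the numbering of the rats follows the groups, so that any effect of processing order cannot be told apart from ethanol either.

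The libraries of CIE rats held 61978486 to 78441691 gene counts and those of Control rats 39082548 to 95647601. The GABAergic marker genes *Gad1* and *Gad2* were high in both groups. In counts scaled to library size (CPM, mean ± SD, n = 6 each), they were at 621 ± 60.2 and 427 ± 57.8 in CIE rats, against 621 ± 53.9 and 443 ± 43.5 in Control rats, and *Prkcd*, which marks a class of lateral central amygdala neurons, was at 31.7 ± 8.25 and 34.9 ± 5.81. Several rats stood apart in markers of neighbouring regions. The summed level of 10 markers of striatal projection neurons was 4129 CPM in Control rat 10, 3720 CPM in CIE rat 2 and 1694 CPM in CIE rat 4, against 286 to 951 CPM in the other 9 rats. The summed level of 9 markers of cortical glutamatergic neurons was 502, 369, 315 and 227 CPM in CIE rats 1, 4 and 2 and Control rat 10, against 86.7 to 168 CPM in the other 8. All 10 markers of myelinating oligodendrocytes were lower in the CIE group at an unadjusted p below 0.05, with summed levels of 5734 to 13889 CPM against 8811 to 16508 CPM in Control rats. At the same threshold 5 of 9 endothelial and 4 of 8 mural cell markers were lower in the CIE group, 2 of 9 cortical markers were higher, none of 10 striatal markers passed, and 2 of 11 central amygdala neuron markers, 1 of 6 general neuronal markers and 1 of 6 microglial markers were lower, while 1 of 8 astrocyte markers was higher and 1 lower. Over all tested genes 8.31% met this threshold in edgeR. At a 5% false discovery rate none of the 10 myelin markers passed, and of the other lists only 1 endothelial and 1 mural marker did. The 2 central amygdala markers lower at the unadjusted threshold were *Crh* (log2 fold change -0.45, unadjusted p = 0.0193 in edgeR) and *Nts* (-0.46, unadjusted p = 0.0437). Of the 11, 9 had a negative log2 fold change, with a median of -0.16. All 9 cortical markers had a positive log2 fold change, with a median of 1.22, so that cortical marker levels were unequal between the groups. Values without those rats or with the marker levels as covariates are given beside the channel results. The myelin markers were lower and the cortical markers higher in the CIE group. The covariates made from them therefore also take up part of any difference between CIE and Control rats.

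None of the 10 channel genes passed a 5% false discovery rate in edgeR, where 76 genes (0.363% of those tested) passed. *Kcnn2* had an unadjusted p below 0.05, and this was 1 of 10 against a background of 8.31% of all tested genes, so that the share was close to that of genes at large. The groups overlapped in all 10 genes, while 0.893% of all tested genes showed no overlap. The mean was higher in the CIE group for 8 of the 10, with a median log2 fold change of 0.12 and a range from -0.20 to 0.23, against a median of 0.00 over all tested genes, of which 50.3% were positive. DESeq2 also called none at 5% and only *Kcnn2* unadjusted, where 9.22% of all genes had such a p. With limma-voom, run with sample quality weights so that rats counted unequally, none passed 5%. There 4 had an unadjusted p below 0.05 (*Kcnma1*, *Kcnn1*, *Kcnn2* and *Kcnn3*), where 17.2% of all genes did. The width of the 95% intervals differed between the genes with the spread between rats, and was narrowest for *Kcnn2* and widest for *Kcnmb2*.

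**Figure D1:**
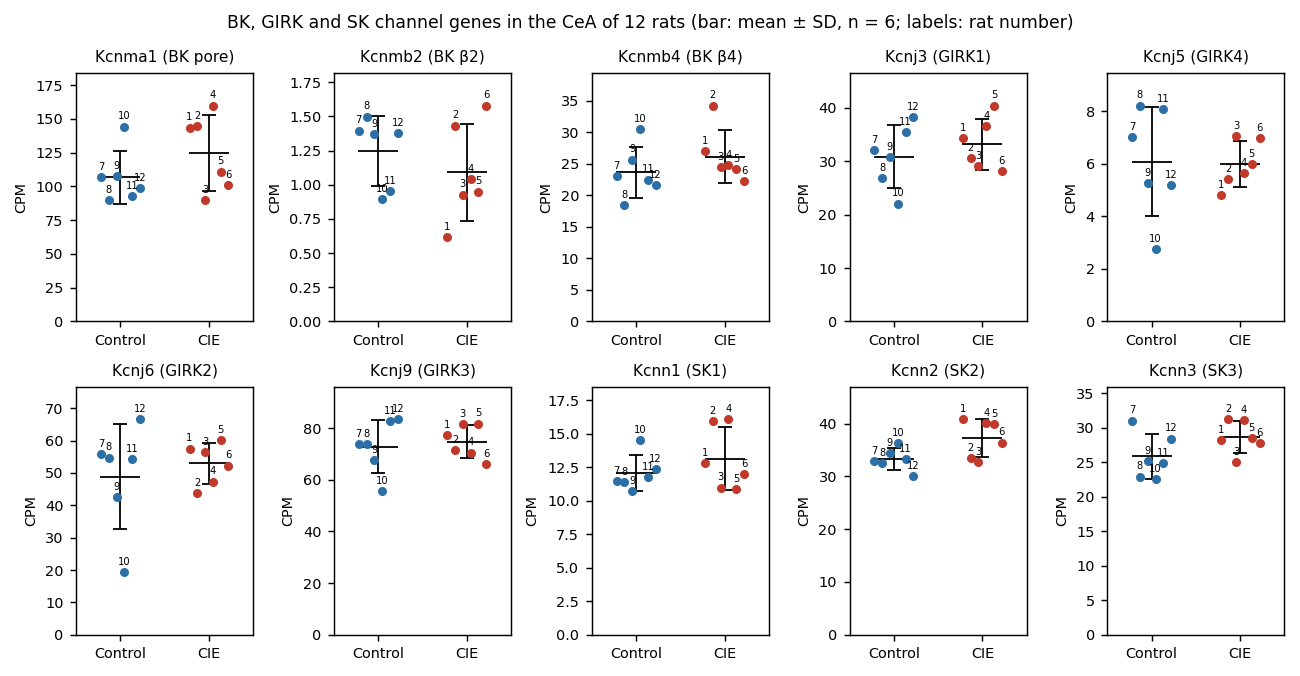
CPM of each of the 10 channel genes in each of the 12 rats, one panel per gene with the axis from 0. Points are rats with their numbers, and bars give mean ± SD (n = 6 per group). The groups overlapped in every panel, and Control rat 10 was the lowest of all rats in *Kcnj3*, *Kcnj5*, *Kcnj6*, *Kcnj9* and *Kcnn3*.

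*Kcnma1* encodes the pore-forming α subunit of the BK channel. Its level ran from 90.0 CPM through a median of 127 to 160 CPM in CIE rats, against 90.0 through 103 to 144 CPM in Control rats. The 2 groups began at the same level, and CIE rats 4 and 2, at 160 and 145 CPM, were above every Control rat, the latter by a small margin over Control rat 10. The log2 fold change was 0.23 (SE 0.150, 95% interval -0.09 to 0.55), with an adjusted p of 0.749 in edgeR. The 4 highest rats, CIE rats 4, 2 and 1 and Control rat 10, were also the 4 with the highest cortical marker sums. Without these 4 rats the log2 fold change was 0.04 (unadjusted p = 0.700), and with the cortical and striatal marker levels as covariates it was 0.02 (unadjusted p = 0.814). The first of these settings was added after the data were seen. It removes the 4 highest values, most of them from CIE rats, and so lowers the estimate whatever the tissue content. The covariates also take up part of any group difference, because cortical markers were higher in the CIE group. The part of tissue content was not tested. Leaving out Control rat 10 alone gave 0.34 (unadjusted p = 0.0230), leaving out CIE rat 3 gave 0.31 (unadjusted p = 0.0441) and leaving out CIE rat 4 gave 0.15 (unadjusted p = 0.342), so that the estimate moved in either direction with the choice of rats. With limma-voom and its sample quality weights the log2 fold change was 0.39 (unadjusted p = 0.00613, adjusted p = 0.140), the largest of the 22 alternatives.

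*Kcnmb4* encodes the β4 subunit, the main β subunit of neurons, which slows BK gating and alters the response of the channel to ethanol. It ran from 22.2 through 24.6 to 34.2 CPM in CIE rats, against 18.4 through 22.8 to 30.5 CPM in Control rats. The highest rat of each group, CIE rat 2 and Control rat 10, was the rat of that group with the highest striatal marker sum, and only CIE rat 2 was above every Control rat. Between the groups this gave a log2 fold change of 0.15 (SE 0.124, 95% interval -0.12 to 0.41), with an adjusted p of 0.818 in edgeR. It was 0.24 (unadjusted p = 0.0486) without Control rat 10, but 0.05 (unadjusted p = 0.634) without CIE rat 2, 0.09 without Control rat 8 and 0.06 with the cortical and striatal covariates.

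*Kcnmb2* encodes the β2 subunit, whose N terminus inactivates the channel. It was counted only 37 to 144 times per library, at 0.615 through 0.996 to 1.58 CPM in CIE rats, against 0.893 through 1.37 to 1.498 CPM in Control rats. CIE rat 1 was below and CIE rat 6 above every Control rat, so that the CIE group covered the whole Control range. The log2 fold change was -0.20 (SE 0.236, adjusted p = 0.878 in edgeR), and its 95% interval of -0.70 to 0.31 was the widest of the 10 genes. It was -0.08 without CIE rat 1, -0.34 without CIE rat 6, -0.37 without both rats highest in striatal markers and -0.03 with the myelin covariate.

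The 4 GIRK genes had the largest unadjusted p-values of the 10, from 0.424 to 0.915. *Kcnj3* encodes GIRK1, which cannot form a working channel at the membrane alone and pairs with the other subunits. It ran from 28.2 through 32.4 to 40.4 CPM in CIE rats, against 22.1 through 31.4 to 38.2 CPM in Control rats, with CIE rat 5 above and Control rat 10 below all others. Between the groups this gave a log2 fold change of 0.11 (SE 0.128, 95% interval -0.17 to 0.38), with an adjusted p of 0.880 in edgeR. It was 0.04 without CIE rat 5, 0.01 without the 4 rats highest in cortical markers and -0.09 with the myelin covariate.

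*Kcnj6* encodes GIRK2, the subunit that carries most neuronal GIRK current and can form channels by itself. Its level was 43.8 through 54.4 to 60.2 CPM in CIE rats, against 19.4 through 54.5 to 66.7 CPM in Control rats. The medians differed by little, every CIE rat lay inside the Control range, and Control rat 10 stood at less than the lowest of the other 11 rats, which held 42.5 to 66.7 CPM. The log2 fold change was 0.11 (SE 0.213, 95% interval -0.34 to 0.57), with an adjusted p of 0.929 in edgeR. Without Control rat 10 it was -0.04, with the myelin covariate -0.05, and without Control rat 12 it was 0.22. With the cortical and striatal markers as covariates it was 0.35 (unadjusted p = 0.0219, adjusted p = 0.466), so that the sign and size of the estimate differed between these settings.

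*Kcnj9* encodes GIRK3, which forms channels with other subunits and directs them to endosomes. It ran from 66.1 through 74.5 to 81.7 CPM in CIE rats, against 55.6 through 73.8 to 83.6 CPM in Control rats, so that the CIE rats again lay within the Control range. Between the groups this gave a log2 fold change of 0.04 (SE 0.0948, adjusted p = 0.947 in edgeR). The 95% interval of the fold change was 0.891 to 1.18, which bounds the difference more tightly than in any other GIRK gene. *Kcnj5* encodes GIRK4, known best from the heart, where it pairs with GIRK1 in the channel opened by acetylcholine. It held 4.81 through 5.82 to 7.03 CPM in CIE rats, against 2.76 through 6.14 to 8.21 CPM in Control rats, with Control rat 10 again the lowest and Control rats 8 and 11 the highest. The log2 fold change was -0.02 (SE 0.216, 95% interval -0.49 to 0.44), with an adjusted p of 0.986 in edgeR. Without Control rat 10 the values were 0.03 for *Kcnj3*, -0.02 for *Kcnj9* and -0.17 for *Kcnj5*. With the cortical and striatal covariates they were 0.15, 0.11 and 0.29, and with the myelin covariate -0.09, -0.11 and 0.03. The sign changed for each of the 3 in some of these settings. For *Kcnj3* this was only with the myelin covariate, whose markers were lower in the CIE group. None had an unadjusted p below 0.05 in these settings.

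*Kcnn2* encodes SK2, the SK subunit of the postsynaptic membrane and of the medium afterhyperpolarization. Its level was 32.7 through 38.2 to 40.9 CPM in CIE rats, against 30.0 through 33.1 to 36.3 CPM in Control rats. CIE rats 1, 4, 5 and 6 were above every Control rat, rat 6 by a small margin, while CIE rats 2 and 3 lay inside the Control range. Between the groups this gave a log2 fold change of 0.16 (SE 0.0719, 95% interval 0.01 to 0.32), a fold of 1.12 with an interval of 1.006 to 1.25. The unadjusted p was 0.0394 and the adjusted p 0.574 in edgeR, where it ranked 1436 among all genes tested. The log2 fold change stayed positive in all 22 alternative settings, between 0.13 and 0.24, and the unadjusted p was below 0.05 in 13 of them. It was 0.0939, 0.0879 and 0.0859 without CIE rats 1, 4 and 5, and 0.0628, 0.0522, 0.0588 and 0.0921 without Control rats 7, 8, 11 and 12. With the cortical and striatal covariates it was 0.116, with the myelin covariate 0.0316, and without the 4 rats highest in cortical markers 0.0692.

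*Kcnn3* encodes SK3, which is prominent in monoamine neurons. It ran from 25.04 through 28.4 to 31.3 CPM in CIE rats, against 22.6 through 25.04 to 31.01 CPM in Control rats. CIE rats 2 and 4 were slightly above Control rat 7, the highest Control rat, and the lowest values were those of Control rats 10 and 8. The log2 fold change was 0.15 (SE 0.0868, 95% interval -0.04 to 0.34), with an adjusted p of 0.706 in edgeR, and without Control rat 7 it was 0.21 (unadjusted p = 0.0223). It was 0.05 (unadjusted p = 0.664) without the 4 rats highest in cortical markers, 0.07 (unadjusted p = 0.541) with the myelin covariate and 0.09 (unadjusted p = 0.353) without both rats highest in striatal markers. *Kcnn1* encodes SK1 and ran from 10.9 through 12.4 to 16.1 CPM in CIE rats, against 10.7 through 11.6 to 14.6 CPM in Control rats. CIE rats 4 and 2 were the highest and Control rat 10 the next, the same 3 rats that led the striatal marker sum. CIE rat 1 followed, so that leaving out the 4 rats highest in cortical markers removes the 4 highest values of *Kcnn1*. Between the groups this gave a log2 fold change of 0.12 (SE 0.117, 95% interval -0.13 to 0.38), with an adjusted p of 0.837 in edgeR, and it was -0.04 with the cortical and striatal covariates, -0.02 without the 4 rats highest in cortical markers, 0.06 without either CIE rat 2 or CIE rat 4, and 0.19 without Control rat 10.

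**Figure D2:**
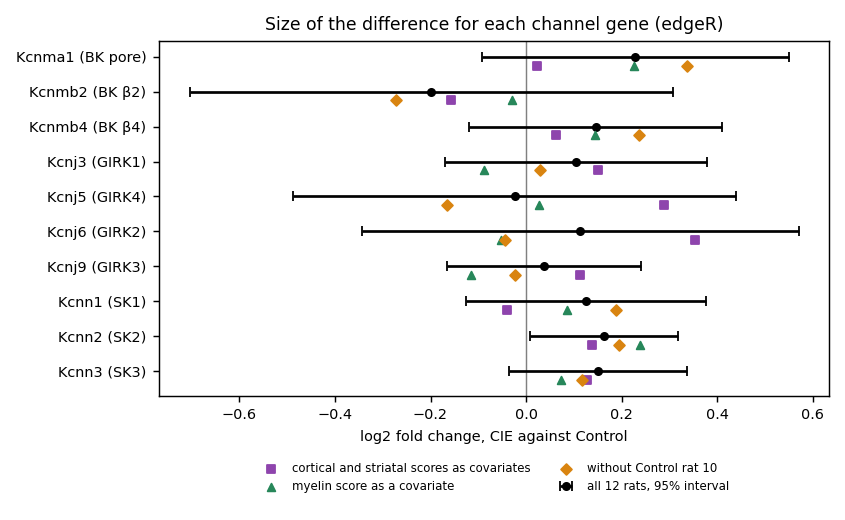
log2 fold change of the CIE group over the Control group for each channel gene with its 95% interval in edgeR (all 12 rats), and the same value with cortical and striatal marker scores as covariates, with the myelin marker score as a covariate and without Control rat 10. Only the interval of *Kcnn2* (0.01 to 0.32) lies above 0, and the marks of *Kcnma1*, *Kcnj5* and *Kcnj6* spread the furthest.

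The spread between rats differed between the genes. Within the Control group the coefficient of variation was 33.4% for *Kcnj6* and 34.3% for *Kcnj5*, against 11.99% and 14.7% in CIE rats, while it was 6.31% for *Kcnn2*, against 9.69%. Without Control rat 10 the Control values were 15.6% for *Kcnj6* and 21.7% for *Kcnj5*, so that much of their spread came from 1 library. Control rat 10 was the lowest of the 12 rats in 5 of the 10 genes, which included all 4 GIRK genes, and among the 3 highest in *Kcnma1*, *Kcnmb4* and *Kcnn1*. The same animal held the highest striatal marker sum and the highest cortical sum of the Control group.

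**Figure D3:**
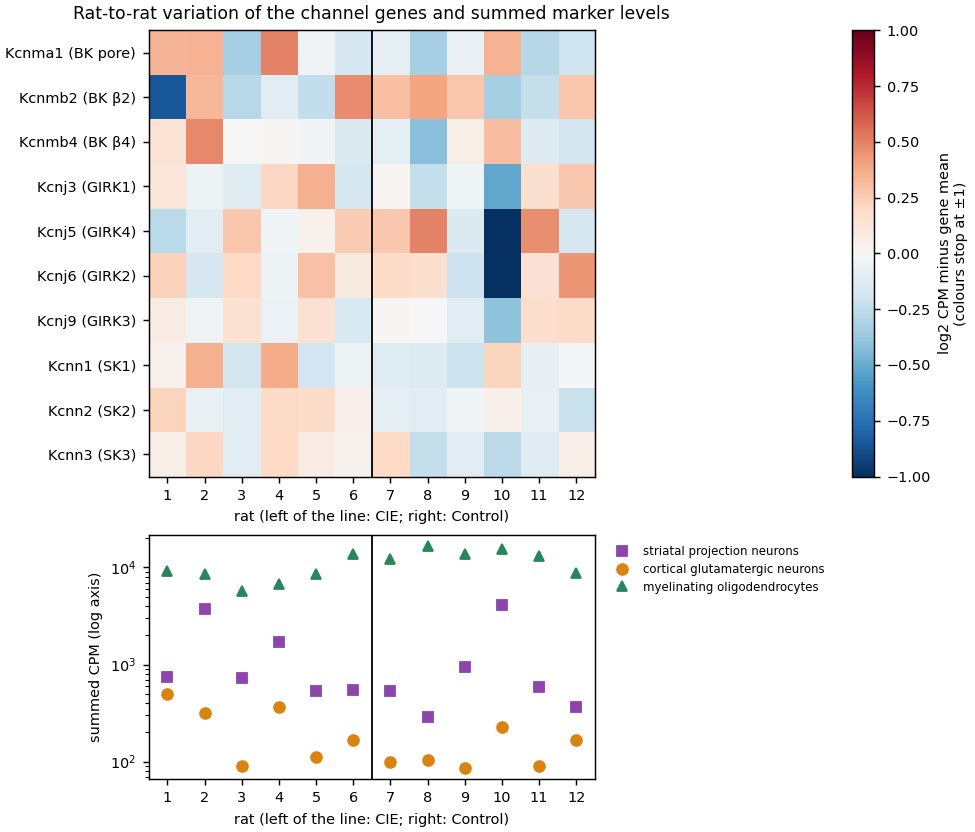
Upper panel, log2 CPM of each channel gene in each rat minus the mean of the gene over 12 rats, with colours that stop at ±1. Lower panel, summed CPM of striatal, cortical and myelin marker genes in the same rats on a log axis. Control rat 10 is the darkest column in the GIRK rows and has the highest striatal sum, at 4129 CPM.

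Because channel properties depend on which subunits come together, the ratio of counts of each accessory or partner subunit to its main subunit was compared between the groups in 7 ratios by two-sided exact permutation tests, of which the smallest possible p was 0.00216. The counts were not corrected for transcript length, so a ratio is compared between rats and is not a proportion of subunits. No ratio passed 0.05. *Kcnmb4* to *Kcnma1* was 0.155 to 0.272 in CIE rats and 0.204 to 0.242 in Control rats (log2 difference -0.07, exact p = 0.619). *Kcnmb2* to *Kcnma1* gave the largest difference, -0.45 on the log2 scale (exact p = 0.199). *Kcnj6* to *Kcnj3* was 0.880 in Control rat 10 and 1.29 to 2.04 in the other 11 rats, so that *Kcnj6* was low there relative to *Kcnj3* too, while the groups differed by 0.09 on the log2 scale (exact p = 0.716). The ratios of *Kcnj9* and *Kcnj5* to *Kcnj3* differed by -0.07 and -0.06 (exact p = 0.468 and 0.799). Among SK genes the ratio of *Kcnn1* to *Kcnn2* differed by -0.05 and that of *Kcnn3* to *Kcnn2* by less than 0.01 on the log2 scale (exact p = 0.723 and 0.965). Adjusted over the 7 ratios, all p-values were 0.932 or above.

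Subunits that assemble with each other were also compared across the 12 rats after the group means were removed, in 4 pairs, with p-values from 100000 permutations adjusted over the pairs. *Kcnj6* and *Kcnj9* varied together most closely, with Pearson's r = 0.881 (permutation p = 0.00031, adjusted 0.00124) and Spearman's rho = 0.755 (permutation p = 0.0065, adjusted 0.0103). Without rats 10 and 12, the 2 farthest from the median of *Kcnj6*, r was 0.688 (permutation p = 0.0301), and without rat 10 alone it was 0.751 (permutation p = 0.00758). Within the groups it was 0.679 in CIE rats (exact p = 0.146) and 0.946 in Control rats (exact p = 0.00972).

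*Kcnj3* followed *Kcnj9* with r = 0.765 (permutation p = 0.00369, adjusted 0.00738) and rho = 0.748 (permutation p = 0.00678, adjusted 0.0103), and *Kcnj6* with r = 0.714 (permutation p = 0.00704, adjusted 0.00939) and rho = 0.545 (permutation p = 0.0711). Both values of r were lower without rats 10 and 12, the 2 farthest from the median of *Kcnj3*, at 0.473 (permutation p = 0.168) and 0.234 (permutation p = 0.509). Without rat 10 alone they were 0.56 (permutation p = 0.0757) and 0.403 (permutation p = 0.22). Within the CIE group r was 0.419 (exact p = 0.386) with *Kcnj9* and 0.301 (exact p = 0.540) with *Kcnj6*, and within the Control group it was 0.910 (exact p = 0.00833) and 0.850 (exact p = 0.0278). *Kcnma1* and *Kcnmb4* gave r = 0.704 (permutation p = 0.00995, adjusted 0.00995) and rho = 0.741 (permutation p = 0.0077, adjusted 0.0103). Without rats 10 and 4 r was 0.745 (permutation p = 0.0121), while without rat 10 alone it was 0.572 (permutation p = 0.0641). It was 0.553 in CIE rats (exact p = 0.25) and 0.921 in Control rats (exact p = 0.00556). Striatal and cortical marker levels varied between the same rats, and their part in these correlations was not tested.

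**Figure D4:**
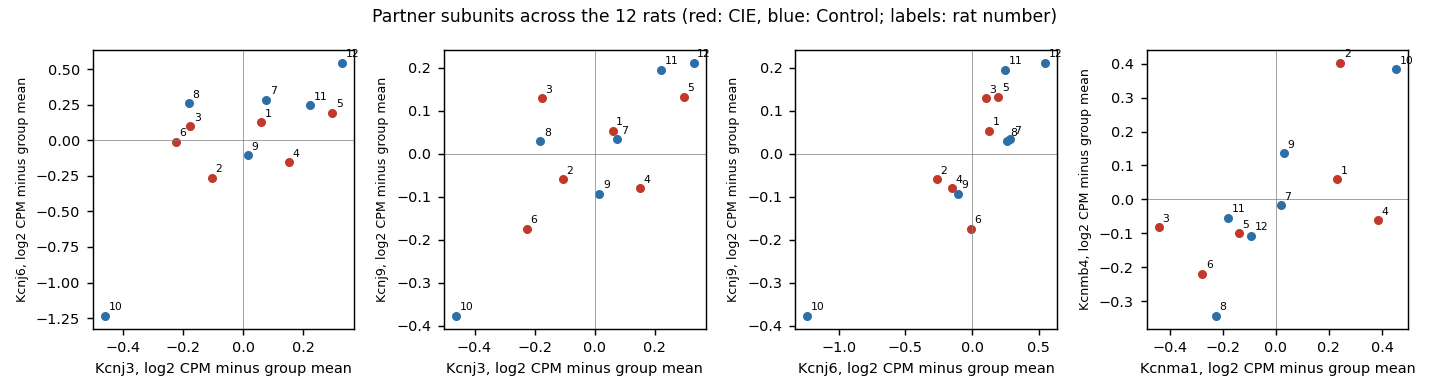
Levels of partner subunits in the 12 rats, as log2 CPM minus the group mean, for *Kcnj3* and *Kcnj6*, *Kcnj3* and *Kcnj9*, *Kcnj6* and *Kcnj9*, and *Kcnma1* and *Kcnmb4*. Red points are CIE rats and blue points Control rats. Rat 10 lies far from the others in the GIRK panels, and *Kcnj6* with *Kcnj9* kept r = 0.751 without it.

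The promoters of *Kcnj6* and *Kcnj9* are shown because this pair had the highest correlation of the 4, with and without Control rat 10. Each stretch is the 250 bases before the gene start in RefSeq (build GRCr8), 5′ to 3′ on the strand of the gene, and capitals mark GC boxes (GGGCGG or its reverse complement).
*Kcnj6*, chr11:47778349-47778598, minus strand: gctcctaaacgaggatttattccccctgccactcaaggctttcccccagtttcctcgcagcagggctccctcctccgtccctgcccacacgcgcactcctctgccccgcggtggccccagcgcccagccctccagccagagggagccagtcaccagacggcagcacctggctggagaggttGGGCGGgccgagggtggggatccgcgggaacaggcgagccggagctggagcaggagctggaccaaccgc
*Kcnj9*, chr13:87320294-87320543, minus strand: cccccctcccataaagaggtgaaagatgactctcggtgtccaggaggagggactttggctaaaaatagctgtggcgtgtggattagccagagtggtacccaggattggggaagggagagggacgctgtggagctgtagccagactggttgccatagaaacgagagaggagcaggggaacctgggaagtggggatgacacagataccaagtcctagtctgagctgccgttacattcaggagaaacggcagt
The *Kcnj6* window was 69.2% G and C with 16 CpG dinucleotides and 1 GC box, and the *Kcnj9* window was 54.8% G and C with 6 CpG dinucleotides and no GC box. Among 33469 promoter windows of the same length the median was 51.2% G and C and 5 CpG, 30.5% held a GC box, 1.59% held TGACGTCA (the cyclic AMP response element) and 12.9% held TATAAA, all searched on both strands. Neither of the latter motifs occurred in these windows.

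Genes that work with these channels were taken from 4 lists of 48 genes in all, of which 45 were tested. At an unadjusted p below 0.05, 2 were higher and 2 lower in the CIE group, which was 8.89% of those tested against 8.31% of all genes, and none passed a 5% false discovery rate in edgeR. The median log2 fold change over the lists was -0.06. Among BK partners, none of 5 tested had such a p. *Kcnmb3*, the β3 subunit, gave 0.78 (unadjusted p = 0.0798) and *Lrrc38*, a γ-type auxiliary subunit, -0.40 (unadjusted p = 0.179). The smooth muscle β subunit gene *Kcnmb1* was listed at 0 in every rat, and the γ-type subunit gene *Lrrc52* had 0 to 19 counts.

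Of 10 SK partners, which include the calmodulin genes and the kinase and phosphatase that set the calcium sensitivity of the SK complex, 1 had an unadjusted p below 0.05. This was *Csnk2b*, the regulatory subunit of casein kinase 2, which was lower with a log2 fold change of -0.19 (SE 0.0822, adjusted p = 0.574 in edgeR). *Ppp2cb*, a catalytic subunit of protein phosphatase 2A, gave -0.10 (unadjusted p = 0.0900). Of 16 GIRK regulators, 1 was higher and 1 lower. *Rgs7*, which speeds the closure of GIRK channels, was at 79.1 ± 7.51 CPM in CIE rats, against 68.7 ± 3.33 CPM in Control rats (SD, n = 6), a log2 fold change of 0.20 (SE 0.0668, adjusted p = 0.359 in edgeR). *Gnai3*, an inhibitory G protein α subunit, gave -0.15 (SE 0.0561, adjusted p = 0.462 in edgeR). Of 14 receptors tested that couple to GIRK channels, 1 was higher, the δ opioid receptor gene *Oprd1*, at 0.43 (SE 0.192, adjusted p = 0.584 in edgeR). The α2A adrenergic receptor gene *Adra2a* gave -0.22 (unadjusted p = 0.0894), and *Sstr2*, a somatostatin receptor gene, was listed at 0 in every rat. Among the 37209 genes listed, 7757 were at 0 in every rat. Such a value, here and for *Kcnmb1*, does not tell a silent gene from one whose reads were not counted.

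The genes whose levels across the 12 rats were most like those of *Kcnn2*, the member with the smallest p, were *Them4*, *Rsl1* and *Asns*, with Pearson's r of 0.934, 0.880 and 0.877 on log2 CPM with group means removed. These are the highest of 20944 genes and are given as a description only. In the RefSeq annotation of GRCr8, 6 of the 10 channel genes overlapped another annotated gene, which was protein coding in 1 case, *Igsf8* beside *Kcnj9*. The counts were made on the older build Rnor_6.0, whose annotation was not at hand and may lack some of these genes. How reads were counted by strand was not given either, so that whether such overlaps affected the counts is not known.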

How the data were processed

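Poly-A RNA of 12 central amygdala punches was sequenced, 1 library per rat. The deposited values are raw read counts per gene, made by the authors with BWA alignment to Rnor_6.0 and HTSeq, and not normalized. The authors tested them with DESeq2 1.26.

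Counts were tested here with edgeR 4.0.16 (quasi-likelihood F test, TMM scaling, filterByExpr, CIE against Control, no covariates) in R 4.3.3, and p-values were adjusted by Benjamini-Hochberg over 20944 genes. SE is the absolute log2 fold change over the square root of F, and 95% intervals use the t quantile. CPM were TMM-scaled. Ratios of counts (0.5 added) were compared on the log2 scale by exact permutation over 924 splits, and correlations used log2 CPM with a prior count of 2. A set of 20 alternatives was fixed beforehand. It included DESeq2 1.42.0, limma-voom 3.58.1 with sample quality weights, other scalings and filters, marker covariates and leaving out each rat. A further 2, which leave out groups of rats, were added after the data were seen. The code was tested on simulated data, with changes larger than any seen in the channel genes. That test does not tell whether changes of their size would be found. The members and lists were chosen with earlier results of these data known.

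The text names all 10 members, the 2 genes with the smallest p in each partner list (none passed a 5% false discovery rate), and the 3 genes most like the member with the smallest p. Partner genes that could not be tested, the overlapping *Igsf8* and the tissue markers were named outside this rule. Of 137 listed symbols, 2 were not found. Promoter windows were matched by symbol in RefSeq (GRCr8) for 8 of the 10 members.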

Additional observations from a re-analysis of the deposited data

Results flagged for a closer look

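Among the 10 channel genes and 7 ratios in each group, 34 sets of 6 values were searched for a rat far from the rest of its group, and 2 were found, where chance gives about 1 in 20. *Kcnma1* was at 144 CPM in Control rat 10, against 90.0 to 108 CPM in the other 5 Control rats, a gap of 0.675 of the range of the group where 0.625 is the limit. The count ratio of *Kcnn3* to *Kcnn2* was 0.936 in CIE rat 2, against 0.691 to 0.776 in the other 5 CIE rats, a gap of 0.652 of the range. These rats also held the highest striatal marker sums, and the part of tissue content in these values was not tested.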

How the results depend on the processing

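No channel gene passed a 5% false discovery rate under any of the 22 alternatives. The number with an unadjusted p below 0.05 was 1 and became 4 with limma-voom, 0 without the 4 rats highest in cortical markers and 0 to 3 on leaving out single rats, and that of the partner genes was 4 and became 11 with limma-voom and 2 to 7 on leaving out single rats. Over all genes limma-voom with sample quality weights gave 3596 such genes against 1740 in edgeR. On leaving out single rats the all-gene number ran from 1347 of 21128 (Control rat 9) to 2811 of 21165 (CIE rat 3). It was 2420 of 21213 without Control rat 10, where 3 channel genes and 7 partner genes had such a p. Without the 4 rats highest in cortical markers it was 1172 of 21691. At 5% the all-gene count was 76 in edgeR, 265 in DESeq2, 234 in limma-voom, 45 with cortical and striatal covariates 22 with the myelin covariate, 38 without both rats highest in striatal markers and 15 without the 4 highest in cortical markers, and on leaving out single rats it was lowest at 34 (Control rat 9) and highest at 154 (CIE rat 6). The cause of these shifts was not tested. Of 10 channel genes, 8 were positive in edgeR, 6 without Control rat 10 (median log2 fold change 0.07), 6 without both rats highest in striatal markers (median 0.07), 6 with the myelin covariate (median 0.05) and 7 without the 4 rats highest in cortical markers (median 0.03), against a median of 0.12 in edgeR with all rats. No scaling moved the median of all genes by more than 0.017. None of the 7 ratios passed 0.05 without any one rat, with a smallest exact p of 0.0584 without Control rat 10. No paired analysis was possible because the groups share no rat numbers. Of the 10 genes *Kcnmb2* had the fewest counts, 37 to 144 per library.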
